A study of Mus musculus with 8 samples.

Results

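The genes described here are the 8 named members of the cGAS-STING DNA sensing pathway: Cgas, Tmem173 (the mouse symbol of STING in the mm10 annotation), Tbk1, Ikbke, Irf3, Irf7, Trex1 and Samhd1. They were taken by symbol from a table of 29079 Ensembl genes. Counts of 7 of the 8 were used, and Trex1, the main cytosolic DNA exonuclease, was not analysed here. The measurements are mRNA sequencing of MC38, a mouse colon adenocarcinoma line. Libraries came from cells edited with the guide Piezo2-gRNA1 (Piezo2 KO, called KO below) and from CRISPR-Ctrl cells (labelled WT), so the WT cells were a CRISPR control. Each line was measured after a single 30 Gy dose of X-rays, with RNA taken 60 hours later, and without irradiation (non-IR). Each of the 4 groups holds 2 libraries. The labels do not say whether these come from separate cultures or whether the KO line is a clone or a pool, so p-values measure only the spread between these libraries, which may be technical.

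cGAS is an enzyme that binds double-stranded DNA in the cytosol and makes the second messenger cGAMP. cGAMP activates STING, a membrane protein of the endoplasmic reticulum, which recruits the kinase TBK1, with its relative IKBKE, to phosphorylate the transcription factors IRF3 and IRF7 and so switch on type I interferon genes. Trex1 and Samhd1 act as brakes: TREX1 degrades cytosolic DNA, and SAMHD1 hydrolyses deoxynucleotides and limits the release of DNA from stalled replication forks. Irradiated tumour cells can hold DNA in micronuclei and in the cytosol, which makes the pathway a usual object of study after X-rays.

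The libraries held 10971004 to 19887180 counts each, and all 7 measured members passed the count filter. The lowest count of a member in any library was 15 reads, for Irf7 in WT non-IR replicate 2. Piezo2, the edited gene, had 7 and 12 reads in KO 30 Gy, 0 and 1 in KO non-IR, 3 and 9 in WT 30 Gy and 0 and 0 in WT non-IR, so its mRNA does not check the labels. The labels call MC38 an epithelial line. Of the epithelial markers, Cdh1 had at least 526 reads in every library, while Krt8 never exceeded 20, Krt18 2 and Cldn7 3 reads, and the fibroblast-type collagen gene Col1a2 had at least 10339 reads.

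Promoter windows of RefSeq (GRCm38.p6, the same genome as mm10) were found for 6 of the 7 measured members and searched on both strands for 2 motifs. These were the core of the interferon-stimulated response element (GAAANNGAAA) and an NF-kB-type site (GGGANNNNCC), in 250 bases before and 50 after the annotated start. The response element core occurred in 0 of the 6 windows, against 3.44% of 32851 windows of all genes. At so low a share, 0 of 6 does not set the members apart from other genes. Of 8 windows of interferon target genes (list below), 5 held it. Cgas had 1 NF-kB-type match, 80 to 71 bases before the start and on the opposite strand (20.7% of all windows), and the other 5 members with a window had none. A match is a run of letters, not a shown binding site, and no match says only that the letters are not in this window. Starts are those of RefSeq, and the windows of Samhd1, Irf7 and Ikbke lie partly inside the gene bounds given below. For these genes fewer than 250 bases before those bounds were searched. The 250 bases before the start are printed for Cgas, whose match is in capitals, for Samhd1 and Irf7, which rose in all 4 comparisons of groups and had no match, and for the interferon target gene Isg15, whose 3 overlapping matches of the response element core are in capitals. All lie on the minus strand and are written 5′ to 3′ in the sense of the gene: Samhd1 at chr2:157135097-157135346, Cgas at chr9:78443238-78443487, Irf7 at chr7:141266425-141266674 and Isg15 at chr4:156200819-156201068.
Samhd1: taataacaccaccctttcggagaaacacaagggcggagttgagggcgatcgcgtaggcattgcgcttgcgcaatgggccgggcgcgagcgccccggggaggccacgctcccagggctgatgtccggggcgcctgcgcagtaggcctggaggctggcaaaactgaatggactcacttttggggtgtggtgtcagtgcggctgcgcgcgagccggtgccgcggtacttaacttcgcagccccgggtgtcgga
Cgas: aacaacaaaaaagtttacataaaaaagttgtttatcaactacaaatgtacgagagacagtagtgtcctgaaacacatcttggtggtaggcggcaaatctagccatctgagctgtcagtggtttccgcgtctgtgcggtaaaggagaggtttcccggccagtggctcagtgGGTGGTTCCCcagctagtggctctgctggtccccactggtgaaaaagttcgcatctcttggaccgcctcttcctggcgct
Irf7: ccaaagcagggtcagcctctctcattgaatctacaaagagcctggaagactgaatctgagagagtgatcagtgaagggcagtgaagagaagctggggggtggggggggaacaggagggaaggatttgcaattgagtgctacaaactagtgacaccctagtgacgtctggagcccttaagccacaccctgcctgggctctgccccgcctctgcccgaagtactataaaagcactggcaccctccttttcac
Isg15: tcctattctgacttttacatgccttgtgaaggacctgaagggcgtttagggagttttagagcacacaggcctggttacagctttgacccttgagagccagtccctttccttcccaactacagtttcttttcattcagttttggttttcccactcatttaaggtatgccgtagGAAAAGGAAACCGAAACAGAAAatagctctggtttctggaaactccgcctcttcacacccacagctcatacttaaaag

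After 30 Gy the KO line had the highest level of 6 of the 7 measured members, with Irf7 and Samhd1 far above every other group. Levels are in CPM (a gene's count scaled to a common library total) and, where genes are set side by side, CPM per kb of annotated exon. Tests are two-sided edgeR quasi-likelihood tests over 14923 genes with Benjamini-Hochberg adjustment (edgeR adjusted p, called under 0.05), and log2 changes carry their standard error, with 2 libraries per group. The irradiation effect called 6 of 7 members higher in KO, where 21.1% of all tested genes were called higher and 39.7% in either direction. In WT it called 4 of 7 higher, against 20.4% of all genes, and 38.9% in either direction. KO against WT called 6 of 7 members higher after irradiation (13.3% of all genes called higher, 24.6% in either direction) and 4 of 7 without it (10.4% and 19.9%). The libraries of the groups compared did not overlap for 7 of 7 members under irradiation in KO and for 6 of 7 in WT, where 68.2% and 68.6% of all tested genes did not. They did not overlap for 7 of 7 between KO and WT after irradiation and for 7 of 7 without it, against 62.3% and 57.1% of all genes, so the absence of overlap alone is common here. No member was called lower in any of these comparisons. The members' median log2 change was 0.40 and 0.30 for irradiation in KO and in WT, against 0.018 and 0.028 over all tested genes. For KO against WT it was 1.11 after irradiation and 0.35 without, against -0.013 and -0.010 over all genes. The comparisons share groups, so their counts are not independent of each other. In bulk RNA, fewer cells of a kind and less RNA per cell cannot be told apart.

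**Figure D1:**
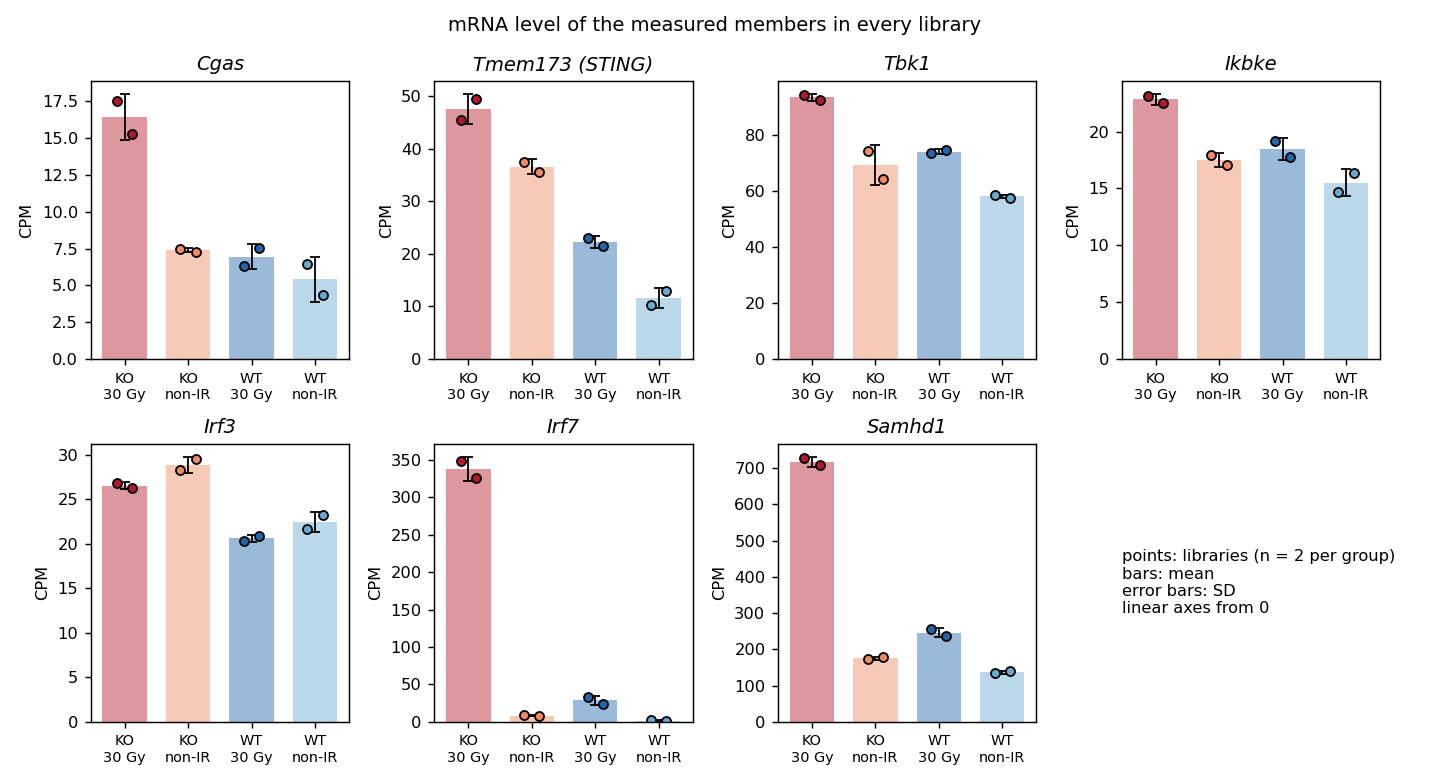
mRNA level in CPM (vertical axes, linear, from 0) of the 7 measured members in KO 30 Gy, KO non-IR, WT 30 Gy and WT non-IR, with points for the 2 libraries, bars for means and error bars for SD. Irf7 stood at 349 and 327 CPM in KO 30 Gy and at no more than 32.7 CPM in any other library, while Irf3 was lower in both WT groups than in either KO group.

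The sensor gene Cgas (ENSMUSG00000032344, mm10 chromosome 9, 78430526 to 78443237, minus strand) was low in all groups except irradiated KO cells. It had 17.5 and 15.3 CPM in KO 30 Gy, 7.47 and 7.29 in KO non-IR, 6.34 and 7.55 in WT 30 Gy, and 6.46 and 4.34 in WT non-IR. Both irradiated KO libraries lay above the other 6, whose values overlapped between WT 30 Gy and each of the non-irradiated groups. In KO cells irradiation raised Cgas by 1.12 ± 0.21 on the log2 scale (edgeR adjusted p = 0.00491), a 2.17-fold rise. In WT cells the change of 0.30 ± 0.22 was not called (edgeR adjusted p = 0.314), with a 95% interval of -0.21 to 0.81. After irradiation KO exceeded WT by 1.25 ± 0.21 (edgeR adjusted p = 0.00486). Without irradiation the difference of 0.43 ± 0.22 was not called (edgeR adjusted p = 0.212), and it ran from 0.17 to 0.77 with single libraries left out.

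Tmem173, which encodes the adaptor STING (ENSMUSG00000024349, chromosome 18, 35733679 to 35740554, minus strand), differed most between the lines before any irradiation apart from Irf7. Its level was 45.5 and 49.5 CPM in KO 30 Gy, 37.6 and 35.7 in KO non-IR, 23.0 and 21.5 in WT 30 Gy, and 10.3 and 12.9 in WT non-IR. The 4 groups did not overlap, and both KO groups were above both WT groups. KO exceeded WT 3.14-fold without irradiation (log2 1.65 ± 0.12, edgeR adjusted p = 0.000185) and 2.16-fold after it (1.11 ± 0.12, 0.000484). Irradiation raised Tmem173 in WT by 0.89 ± 0.12 (edgeR adjusted p = 0.00116). The rise in KO was 0.34 ± 0.11 (0.0436), and leaving out either library of KO 30 Gy, KO non-IR or WT 30 Gy ended the call, as did DESeq2 (0.104) and the fit without a count filter (0.0643). Adjusted p ran from 0.000621 to 0.26 over the alternatives.

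Tbk1, the kinase that acts on IRF3 (ENSMUSG00000020115, chromosome 10, 121546455 to 121586787, minus strand), moved little. It had 94.3 and 92.7 CPM in KO 30 Gy, 74.5 and 64.3 in KO non-IR, 73.6 and 74.7 in WT 30 Gy, and 58.5 and 57.7 in WT non-IR. The irradiated KO libraries were highest and the non-irradiated WT libraries lowest, and the other 2 groups overlapped. Irradiation raised Tbk1 in KO by 0.40 ± 0.08 (edgeR adjusted p = 0.00692) and in WT by 0.29 ± 0.08 (0.0258). KO exceeded WT by 0.35 ± 0.08 after irradiation (0.0186), and the 0.24 ± 0.08 without it was not called (0.0822). The WT call was lost without any one of the 4 WT libraries or KO 30 Gy replicate 2, and with DESeq2 (adjusted p = 0.0535), over a range of 5.97e-05 to 0.13 among all alternatives. The KO call after irradiation was lost without any one of the 4 irradiated libraries, with adjusted p up to 0.1.

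Ikbke, the inducible relative of TBK1 (ENSMUSG00000042349, chromosome 1, 131254343 to 131279606, minus strand), had 23.1 and 22.5 CPM in KO 30 Gy, 18.0 and 17.0 in KO non-IR, 19.2 and 17.8 in WT 30 Gy, and 14.6 and 16.4 in WT non-IR. Its order of groups was that of Tbk1, with KO non-IR and WT 30 Gy overlapping. Its rise after irradiation in KO, 0.35 ± 0.11 (edgeR adjusted p = 0.0326), was the only call, and it was lost without either library of any of KO 30 Gy, KO non-IR and WT 30 Gy, without WT non-IR replicate 1, and with DESeq2 (0.149, range over alternatives 0.00475 to 0.149). After irradiation KO exceeded WT by 0.32 ± 0.11 (0.0631), and neither the WT irradiation effect (0.19 ± 0.11, 0.189) nor the non-irradiated difference (0.16 ± 0.11, 0.338) was called. Per kb of exon, Tbk1 mRNA stood 8.13 to 9.69 times above Ikbke mRNA in all 8 libraries.

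**Figure D2:**
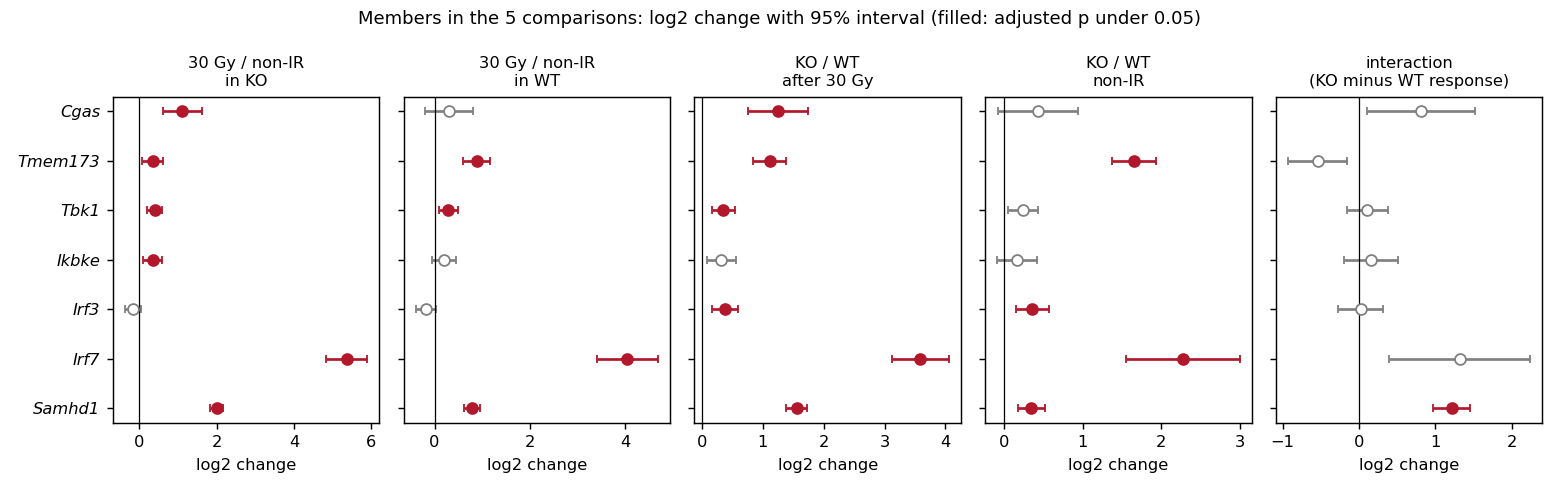
log2 change (horizontal axes) with its 95% interval for each of the 7 measured members in the 5 comparisons, with filled points for edgeR adjusted p under 0.05. Irf7 lay farthest right in all 5 panels, Irf3 was left of 0 in both irradiation panels with an interval that reached 0, and Samhd1 was the only filled point among the interactions.

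Irf3, the constitutive interferon regulatory factor (ENSMUSG00000003184, chromosome 7, 44997648 to 45002848, plus strand), was the member with no called rise after irradiation in either line. It had 26.8 and 26.3 CPM in KO 30 Gy, 28.3 and 29.5 in KO non-IR, 20.4 and 20.9 in WT 30 Gy, and 21.6 and 23.3 in WT non-IR. In each line the irradiated libraries were slightly below the non-irradiated ones. The irradiation effects, -0.16 ± 0.09 in KO (edgeR adjusted p = 0.2) and -0.18 ± 0.09 in WT (0.153), were not called, and their 95% intervals were -0.37 to 0.05 and -0.39 to 0.03. KO exceeded WT by 0.38 ± 0.09 after irradiation (0.0203) and by 0.35 ± 0.09 without it (0.0303). The call after irradiation was lost without any one of the 4 irradiated libraries and with DESeq2 (0.107, the highest of its alternatives, with 0.00129 the lowest), and the call without irradiation was lost without any one of the 8 libraries.

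Irf7, the factor through which interferon amplifies its own production (ENSMUSG00000025498, chromosome 7, 141262706 to 141266481, minus strand), spanned more than any other member. It had 349 and 327 CPM in KO 30 Gy, 8.75 and 7.49 in KO non-IR, 32.7 and 24.3 in WT 30 Gy, and 2.25 and 0.985 in WT non-IR. No groups overlapped, and irradiation put WT above the non-irradiated KO line. Irradiation raised Irf7 41.0-fold in KO (log2 5.36 ± 0.23, edgeR adjusted p = 3.36e-06) and 16.5-fold in WT (4.04 ± 0.28, 5.71e-05). KO exceeded WT by 3.59 ± 0.20 after irradiation (2.81e-05, 95% interval of the fold 8.68 to 16.6) and 4.82-fold without it (2.27 ± 0.31, 0.0026). These calls held without any one library. The WT non-IR libraries, with 38 and 15 reads, set the size: without replicate 1 and without replicate 2 of WT non-IR the non-irradiated KO difference was 3.02 and 1.81, and the WT irradiation effect was 4.77 and 3.58.

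**Figure D3:**
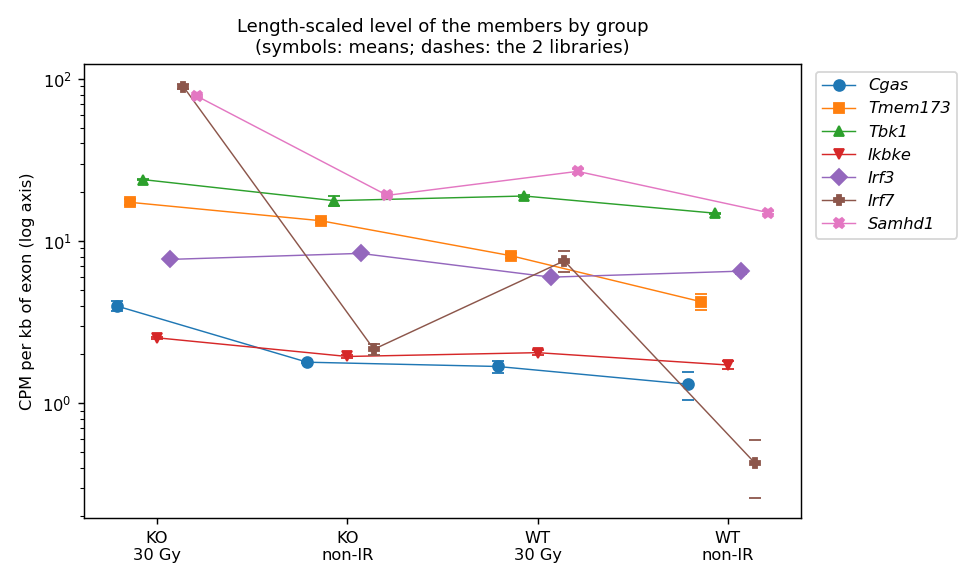
CPM per kb of annotated exon (log axis) of the 7 measured members in KO 30 Gy, KO non-IR, WT 30 Gy and WT non-IR, with symbols for means, dashes for the 2 libraries and thin lines that only join the symbols of a gene. Irf7 was the top member in KO 30 Gy at 89.5 and the bottom one in WT non-IR at 0.429, whereas Tbk1 stayed between 14.9 and 23.9.

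Set per kb of exon, the factors IRF3 and IRF7 changed places. Irf7 mRNA was 11.9 and 11.3 times Irf3 mRNA in the KO 30 Gy libraries and 0.282 and 0.231 times in KO non-IR. It was 1.46 and 1.06 times Irf3 mRNA in WT 30 Gy, and 0.0949 and 0.0386 times in WT non-IR. In each line the irradiated libraries thus held more Irf7 than Irf3 mRNA, and the non-irradiated libraries less. In WT non-IR the length-scaled order was Samhd1 (14.7 and 15.3 CPM per kb in the libraries), Tbk1 (mean 14.9), Irf3 (6.52), Tmem173 (4.22), Ikbke (1.72), Cgas (1.31) and Irf7 (0.429), and the libraries of Samhd1 and Tbk1 overlapped. In KO 30 Gy it was Irf7 (89.5), Samhd1 (78.4), Tbk1 (23.9), Tmem173 (17.3), Irf3 (7.71), Cgas (3.98) and Ikbke (2.53). The sensor Cgas was thus scarcer per kb than the adaptor Tmem173 in every library, with Tmem173 at 2.39 to 7.56 times the Cgas level.

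Samhd1, the deoxynucleotide hydrolase (ENSMUSG00000027639, chromosome 2, 157097533 to 157135265, minus strand), was abundant in every group and rose most clearly in irradiated KO cells. It had 727 and 708 CPM in KO 30 Gy, 173 and 177 in KO non-IR, 255 and 237 in WT 30 Gy, and 134 and 140.1 in WT non-IR. The groups did not overlap. Irradiation raised it in KO (log2 2.0004 ± 0.08, 95% interval of the fold 3.54 to 4.52, edgeR adjusted p = 2.12e-06) and 1.72-fold in WT (0.79 ± 0.07, 0.000215). KO exceeded WT 2.94-fold after irradiation (1.56 ± 0.07, 1.6e-05) and 1.27-fold without it (0.34 ± 0.07, 0.0166). The last call was lost without any one of the 4 non-irradiated libraries, with adjusted p up to 0.0977 and as low as 3.78e-08 among the alternatives.

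The interaction asks whether the dose acted differently in the lines, taking the KO response less the WT response. It called 1 of 7 members, Samhd1, higher by 1.22 ± 0.10 (edgeR adjusted p = 0.00199), where 1.37% of all tested genes were called higher and 0.570% lower (1.94% in either direction). This held without any one library. Irf7 had an interaction of 1.32 ± 0.40 (edgeR adjusted p = 0.204), Cgas of 0.81 ± 0.30 (0.323) and Tmem173 of -0.54 ± 0.17 (0.206), with 95% intervals of 0.39 to 2.24, 0.11 to 1.52 and -0.93 to -0.16. DESeq2 and the edgeR fit without a count filter called Irf7 (adjusted p = 0.00353 and 9.85e-06), while leaving out single libraries put it between 0.57 and 1.77, with adjusted p up to 0.76 over all alternatives. Tbk1 (0.11 ± 0.12), Ikbke (0.16 ± 0.15) and Irf3 (0.02 ± 0.13) had edgeR adjusted p of 0.824, 0.786 and 0.986. With the replicate number as a block, the interaction also called Irf7 and Cgas higher and Tmem173 lower, as given in the closing section.

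The KO and WT lines also differed along whole chromosomes, which touches the members placed there. On chromosome 18 the median KO difference was 0.38 without irradiation and 0.40 after it (357 tested genes), and on chromosome 7 it was 0.37 and 0.38 (1147 genes), against -0.010 and -0.013 over all genes. Irf3, at 0.35 without irradiation and 0.38 after it, lay at the median of the 120 tested genes within 5 Mb of it (0.37 in both comparisons), with 63 and 59 of them above it. Irf7, also on chromosome 7, had 4 and 1 of 99 such neighbours above it, around medians of 0.39 and 0.45. Tmem173 on chromosome 18 had 3 and 6 of 109 neighbours above it, around medians of 0.39 and 0.40. Around Cgas, Tbk1, Ikbke and Samhd1 the neighbours' medians were between -0.12 and 0.07. The part of these chromosome shifts in the members' differences was not tested.

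**Figure D4:**
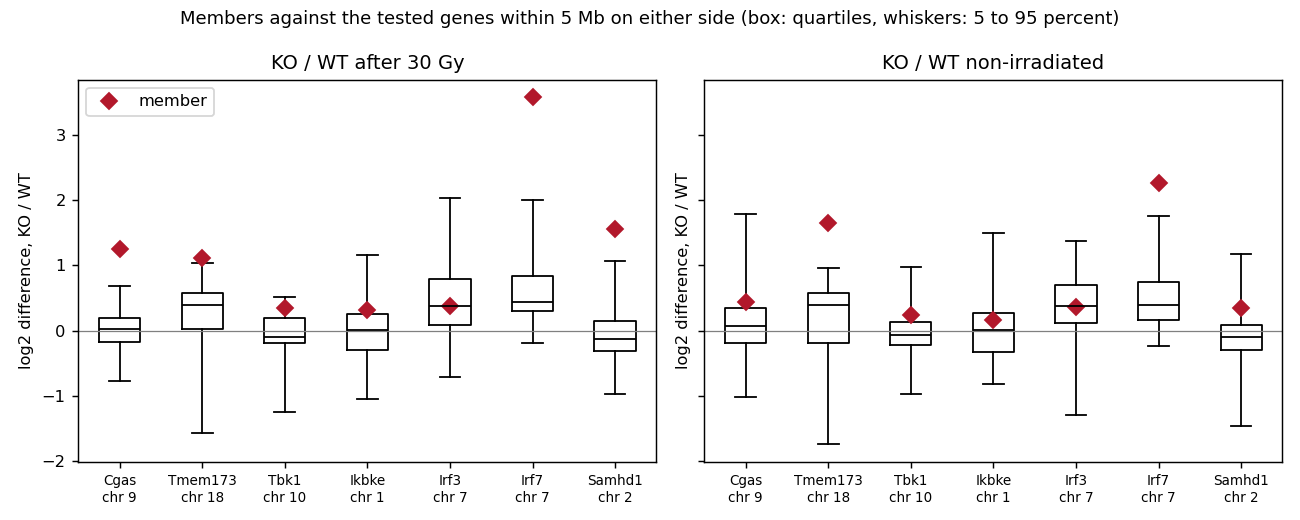
log2 difference of KO over WT (vertical axis) after 30 Gy (left) and without irradiation (right), with a diamond for each member and a box (quartiles, whiskers from 5 to 95 percent) for the tested genes within 5 Mb on either side. Irf3 sat on the median of its neighbours in both panels, and Irf7 and Tmem173 lay in the upper end of neighbourhoods whose medians were 0.39 to 0.45.

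Several members are highly expressed in myeloid cells, so markers of other cell types were read beside them. The 12 macrophage and myeloid markers summed to 65.9 and 57.1 CPM in KO 30 Gy, 7.57 and 7.995 in KO non-IR, 38.8 and 40.5 in WT 30 Gy, and 3.91 and 4.07 in WT non-IR. Nearly all of it was Cd68, a lysosomal gene. Without Cd68 the sums were 3.18 and 3.35 CPM in KO 30 Gy against 0.638 and 0.302 in KO non-IR. For WT they were 2.95 and 2.50 CPM after 30 Gy and 0.415 and 0.460 in non-IR. Adgre1, Tyrobp, C1qa, C1qb and C1qc never had more than 2 reads in a library, and among 7 T and NK cell markers analysed Cd3d, Cd3e, Cd3g and Cd8a never exceeded 2. Other myeloid markers peaked at 20 (Ptprc), 17 (Ctss), 14 (Lyz2), 10 (Csf1r), 6 (Fcer1g) and 4 reads (Mrc1). Ptprc had 6 and 7 reads in KO 30 Gy and 0 and 0 in KO non-IR, and 20 and 20 in WT 30 Gy and 0 and 2 in WT non-IR. The 7 dendritic cell markers analysed summed to 581 and 523 CPM in KO 30 Gy, 129 and 109 in KO non-IR, 180 and 153 in WT 30 Gy, and 81.6 and 85.1 in WT non-IR. Interferon-induced Bst2 held most of that sum in KO 30 Gy and Tcf4 the larger part in the other 6 libraries, while Itgax never exceeded 2 reads. Xcr1 had 28 and 26 reads in KO 30 Gy and 0 and 0 in KO non-IR, and 50 and 50 in WT 30 Gy and 8 and 1 in WT non-IR. Clec9a, Ccr9 and Flt3 peaked at 9, 7 and 4 reads. The 9 fibroblast markers summed to 2627 and 2945 CPM in KO 30 Gy, 1553 and 1651 in KO non-IR, 1665 and 1844 in WT 30 Gy, and 1122 and 1238 in WT non-IR. Col1a2 and Col3a1 held most of this sum in every library, while Lum, Thy1 and Postn peaked at 1, 5 and 24 reads. The 5 endothelial markers summed to 11.1 and 13.3 CPM in KO 30 Gy, 8.84 and 7.59 in KO non-IR, 5.09 and 6.91 in WT 30 Gy, and 1.72 and 1.97 in WT non-IR, with Emcn at 2 reads or fewer throughout. Without Tek these sums were 5.97 and 5.37 CPM in KO 30 Gy and 2.46 and 1.66 in KO non-IR. In WT they were 4.72 and 6.16 after 30 Gy and 1.42 and 1.97 in non-IR. The part of these markers' signal in the members' changes, including that of Cd68, Bst2, Tcf4 and the collagens, was not tested.

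The genes around the members were read from 11 lists of 122 other pathway genes, of which 112 were tested. Irradiation called 53 of them higher and 18 lower in KO, and 48 higher and 18 lower in WT, where 18.6% and 18.4% of all tested genes were called lower. KO against WT called 39 higher and 20 lower after irradiation and 21 higher and 22 lower without it, where 11.4% and 9.49% of all genes were called lower. Their median log2 changes were 0.28 and 0.20 for irradiation in KO and WT, and 0.03 and 0.0026 for KO against WT after and without irradiation. The shares called higher over all genes were 21.1% and 20.4% for irradiation in KO and WT. For KO against WT they were 13.3% after irradiation and 10.4% without it. The lists below are too short for a count near these shares to say anything about a list.

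**Figure D5:**
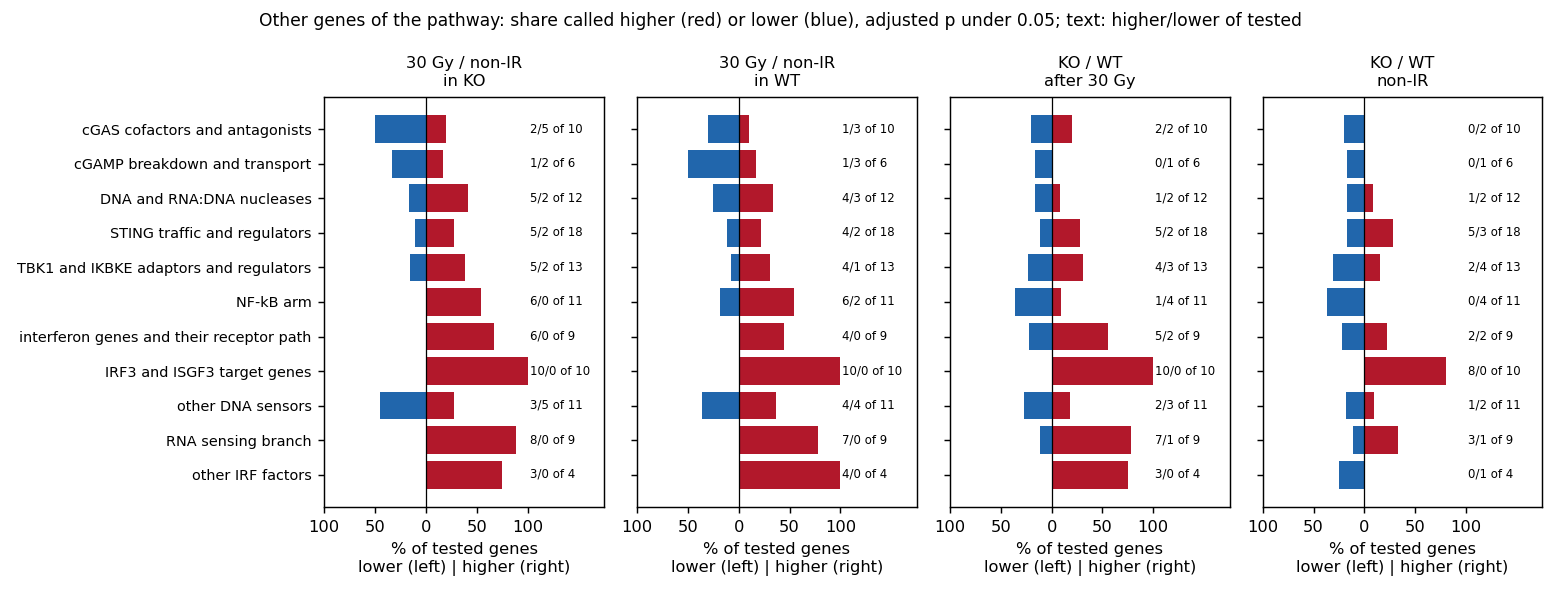
Percent of the tested genes of each of 11 pathway lists called higher (red, right) or lower (blue, left) at edgeR adjusted p under 0.05 in irradiated against non-IR KO cells, irradiated against non-IR WT cells, KO against WT after 30 Gy and KO against WT without irradiation. Of the IRF3 and ISGF3 target genes 10, 10, 10 and 8 of 10 were called higher, against all-gene shares of 21.1%, 20.4%, 13.3% and 10.4%.

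Upstream of the sensor, irradiation called 2 of 10 cGAS cofactors and antagonists higher and 5 lower in KO, and 1 higher and 3 lower in WT, beside all-gene shares of 21.1% and 18.6% in KO and 20.4% and 18.4% in WT. Banf1, which encodes the chromatin protein BAF that keeps cGAS off nuclear DNA, had 68.4 and 72.4 CPM in KO 30 Gy against 145 and 162 in KO non-IR, and 69.1 and 71.6 in WT 30 Gy against 169 and 165 in WT non-IR. Its log2 changes were -1.16 ± 0.08 in KO (edgeR adjusted p = 4.95e-05) and -1.30 ± 0.08 in WT (4.35e-05). The ubiquitin ligase gene Trim56 rose in KO (1.46 ± 0.10, 3.23e-05) and WT (0.80 ± 0.10, 0.000685). Between the lines, the cofactor gene Zcchc3 had 5 and 5 reads in KO 30 Gy against 51 and 32 in WT 30 Gy, and 0 and 0 in KO non-IR against 33 and 32 in WT non-IR. It was at least 20.8-fold lower in KO without irradiation, taking 3 counts over the KO group as the limit that 0 reads allow. After irradiation the KO to WT ratio was 0.114 (exact 95% interval 0.0529 to 0.221, which covers counting error only; edgeR adjusted p = 0.00598). G3bp1, another cofactor, was lower in KO both after irradiation (-0.87 ± 0.08, edgeR adjusted p = 0.00033) and without it (-0.83 ± 0.08, 0.000654).

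Of 6 tested genes of cGAMP breakdown and transport, 1 was called higher and 2 lower after irradiation in KO and 1 and 3 in WT. Over all genes irradiation called 21.1% higher and 18.6% lower in KO, and 20.4% and 18.4% in WT. Slc19a1, a cGAMP importer in human cells and a folate carrier, had 15.7 and 13.7 CPM in KO 30 Gy against 44.4 and 42.9 in KO non-IR, and 18.3 and 18.2 in WT 30 Gy against 53.3 and 52.2 in WT non-IR. It fell in KO (-1.61 ± 0.10, edgeR adjusted p = 1.77e-05) and in WT (-1.59 ± 0.09, 3.13e-05). Enpp1, the main cGAMP hydrolase, never exceeded 4 reads in a library. Of 12 DNA and RNA:DNA nuclease genes, 5 were called higher and 2 lower after irradiation in KO and 4 and 3 in WT, beside the same all-gene shares. Lysosomal Pld3 was higher in irradiated than in non-IR cells of KO (1.38 ± 0.10, edgeR adjusted p = 3.75e-05) and WT (1.25 ± 0.10, 9.35e-05), and higher in KO than in WT after irradiation (0.93 ± 0.09, 0.000427) and without it (0.80 ± 0.10, 0.0016).

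Of 18 tested STING traffic and regulator genes, 5 were called higher and 2 lower after irradiation in KO and 4 and 2 in WT, so the shares called higher were close to the 21.1% and 20.4% of all genes. Usp18, which encodes an interferon-induced protease that removes ISG15, led the rises in KO (6.88 ± 0.32, edgeR adjusted p = 5.01e-06) and WT (5.17 ± 0.47, 0.000181). The WT rise stood against only 8 reads in WT non-IR (ratio 37.7, exact 95% interval 18.9 to 88.1, counting error only). Usp18 is also among the IRF3 and ISGF3 target genes below. Among 13 adaptors and regulators of TBK1 and IKBKE, 5 were called higher and 2 lower in KO, and 4 and 1 in WT. The all-gene shares were 21.1% higher and 18.6% lower in KO, and 20.4% and 18.4% in WT. Optn, an autophagy receptor that TBK1 phosphorylates, had 92.1 and 106 CPM in KO 30 Gy against 33.7 and 36.4 in KO non-IR, and 57.4 and 61.5 in WT 30 Gy against 37.4 and 38.2 in WT non-IR. It rose in KO (1.46 ± 0.10, 3.52e-05) and WT (0.60 ± 0.10, 0.00278), and its interaction was 0.87 ± 0.14 (0.0235). Tax1bp1 was higher in KO than in WT after irradiation (0.80 ± 0.08, edgeR adjusted p = 0.000326) and without it (0.85 ± 0.08, 0.000427).

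Of 11 genes of the NF-kB arm, which STING also feeds, irradiation called 6 higher and 0 lower in KO and 6 and 2 in WT. Over all genes it called 21.1% higher and 18.6% lower in KO, and 20.4% and 18.4% in WT. KO against WT called 1 higher and 4 lower after irradiation, and 0 and 4 without it, where 13.3% and 11.4% of all genes were called higher and lower after irradiation and 10.4% and 9.49% without it. Nfkb2, an NF-kB subunit gene, was lower in KO after irradiation (-0.67 ± 0.13, edgeR adjusted p = 0.00735) and without it (-0.78 ± 0.13, 0.0052). The inhibitor gene Tnfaip3 rose by 2.26 ± 0.17 in KO (5.87e-05) and by 1.75 ± 0.16 in WT (0.00018).

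Interferon genes and their targets, which the pathway can switch on, were read next. The RNA sensing branch, below, also leads to them, and the part of each was not tested. Ifnb1, the first interferon gene that IRF3 switches on, had 129 and 118 reads in KO 30 Gy, 1 and 0 in KO non-IR, 4 and 4 in WT 30 Gy, and 1 and 0 in WT non-IR. Only the irradiated KO libraries held more than 4 reads. After irradiation the KO to WT ratio was 29.3 (exact 95% interval 14.6 to 68.7, counting error only; edgeR adjusted p = 0.000856). The WT irradiation effect was a ratio of 8.34 (1.12 to 370) on 8 reads against 1 and was not called (edgeR adjusted p = 0.0636), and the interaction was not called either (4.78 ± 2.04, 0.397). Of 10 IRF3 and ISGF3 target genes, 10 were called higher after irradiation in each line, 10 were higher in KO than WT after irradiation and 8 without it. All-gene shares called higher were 21.1% and 20.4% for irradiation in KO and WT. For KO against WT they were 13.3% after irradiation and 10.4% without it. The chemokine gene Cxcl10 had 332 and 294 CPM in KO 30 Gy, 2.28 and 1.61 in KO non-IR, 41.9 and 22.8 in WT 30 Gy, and 0.890 and 0.723 in WT non-IR. Among 9 genes of the RNA sensing branch, which converges on TBK1 through Mavs, 8 were called higher and 0 lower after irradiation in KO and 7 and 0 in WT. All-gene shares called lower by irradiation were 18.6% in KO and 18.4% in WT. In the interaction 14 of the 112 were called higher and 0 lower, 6 of them in the RNA sensing branch. Over all tested genes the interaction called 1.37% higher and 0.570% lower.

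Among other DNA sensors, 3 of 11 were called higher and 5 lower after irradiation in KO, and 4 and 4 in WT. The all-gene shares were 21.1% higher and 18.6% lower in KO, and 20.4% and 18.4% in WT. Zbp1, a sensor of Z-form nucleic acid, rose by 7.14 ± 0.19 in KO (edgeR adjusted p = 5.51e-07) and by 6.69 ± 0.30 in WT (1.24e-05), the last against only 4 reads in WT non-IR (ratio 113, exact 95% interval 44.0 to 418). Ifi204, a PYHIN protein gene, had 312 and 286 CPM in KO 30 Gy against 33.5 and 32.1 in KO non-IR, and 62.6 and 45.4 in WT 30 Gy against 29.2 and 26.5 in WT non-IR. Of the 4 tested other interferon regulatory factor genes, irradiation called 3 higher and 0 lower in KO and 4 and 0 in WT, beside the same all-gene shares. Irf5 and Irf1 of this list had called interactions, of 2.27 ± 0.31 (edgeR adjusted p = 0.012) and 1.15 ± 0.14 (0.00661). The interaction called 1.37% of all tested genes higher.

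Over the 8 libraries, Pearson correlations of log2 CPM between pairs of members other than Irf3 ran from 0.723 to 0.969 (15 pairs), and those of Irf3 with the others from 0.114 to 0.634 (6 pairs). The libraries share 4 groups, so these values mostly restate the group differences. Among 10514 other genes averaging 5 CPM or more, the closest in pattern to Irf7 were Cmpk2 (r = 0.998), Ifi44 (0.996) and Itm2c (0.995). Closest to Samhd1 were Dcp2 (0.998), Tor1aip1 (0.997) and Tlr3 (0.996), and closest to Cgas were Syce2 (0.993), AW146154 (0.984) and Mef2a (0.98). Tmem173 was closest to Hpse (0.995), Pik3c2a (0.994) and Patj (0.992), and Irf3 to Dop1a (0.992), Fxyd5 (0.989) and Clic5 (0.987). For Tbk1 they were Scamp2 (0.99), Naip2 (0.989) and Asah2 (0.989), and for Ikbke Amer1 (0.994), Oas1g (0.992) and Gm26809 (0.983).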

How the data were processed

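The authors deposited a table of unnormalized read counts, with a row for each Ensembl gene and a column for each library. The submitters' processing notes list HISAT2, HISAT, HTSeq, DESeq2 and the build mm10 with neither role nor version. Nothing used here states the annotation release, the filters or the strand setting, so reads of opposite genes cannot be told apart where exons overlap, which concerns 4.87% of the exon bases of Cgas, 2.56% of Irf3 (with Bcl2l12), 1.76% of Ikbke and 1.19% of Irf7 (with Phrf1).

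Symbols were found for 28880 of 29079 gene IDs, and positions and exon lengths are those of GENCODE M21 (1-based). The tests ran in edgeR 4.0.16 under R 4.3.3 (filterByExpr with minimum count 10 and minimum total 15, TMM factors 0.975 to 1.02, 1 coefficient per group, 4 residual degrees of freedom, glmQLFTest, Benjamini-Hochberg over 14923 tested genes). The fit was tested on simulated data. Alternatives were DESeq2 1.42.0, its size factors within edgeR, no count filter, only the groups compared, the replicate number as a block, and each library left out. Samples were grouped by title. A count of 0 reads allows up to 3 counts, or 0.151 to 0.273 CPM. Intervals on ratios of reads are exact (Clopper-Pearson, 95%) and cover counting error only, since reads carry no molecular identifiers.

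All members are described in every comparison. Of each pathway list and comparison, up to 3 genes called higher and 2 called lower with the largest change and at least 1 CPM in the higher group could be named, and for patterns alike the 3 genes with the highest Pearson correlation. Members, lists and rules were chosen with earlier results of these data known. Named outside the rule, after their values were seen, are Enpp1, the promoter of Isg15, and the values of Ifnb1 and Cxcl10 in comparisons where the rule did not take them. A gene and a motif that the rule also takes are not reported here.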

Additional observations from a re-analysis of the deposited data

Results flagged for a closer look

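The response to 30 Gy differed between the lines, by the edgeR interaction test, for 1 member, Samhd1 (log2 interaction 1.22, 95% interval of the fold 1.96 to 2.75). Among the other pathway genes reported here it differed for the following: Ifit2 (2.56), Tlr3 (2.48), Irf5 (2.27), Ifi204 (2.26), Isg15 (2.18), Ifih1 (2.08), Eif2ak2 (1.67), Stat2 (1.53), Irf1 (1.15) and Optn (0.87), each as a log2 interaction with a larger rise in KO than in WT. Groups of 2 libraries were not searched for a library far from the others.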

How the results depend on the processing

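Of 448 values of single members under 13 alternatives, 389 kept their direction and their side of the threshold, 49 were no longer called, 8 became called and 2 changed sign. DESeq2 ended 5 calls, the fit without a count filter 4 and the 2 groups alone 2. The paragraphs on single members do not name all of these. The sign changes were the interaction of Irf3, which ran from -0.0236 (without WT non-IR replicate 2) to 0.0674 with 1 library left out and was also below 0 without KO non-IR replicate 1 (-0.0235). Members called higher in KO without irradiation numbered 4, and 2 to 3 with 1 library left out, where fewer libraries enter the fit; the replicate block gave 6. The interaction called 2 members higher with DESeq2 and 2 without a count filter, against 1.

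Replicate numbers repeat across groups, and replicate 1 deviated alike in all 6 pairs of groups (correlation 0.564 to 0.611), but with 2 numbers they were not taken as pairs. With the replicate block 3 members were called higher and 1 lower in the interaction: Irf7 (1.31, adjusted p = 0.000232), Cgas (0.79, 0.017), Samhd1 and Tmem173 (-0.54, 0.00618). It also called Cgas (adjusted p = 0.0413) and Tbk1 (0.00177) higher in KO without irradiation and Ikbke (0.0108) after it, making 7 members there. The block gave 1216 higher and 1276 lower genes in the interaction (205 and 85 without the block). For KO against WT it gave 3197 and 3504 without irradiation (1555 and 1416) and 3761 and 3755 after irradiation (1980 and 1698). Lower genes for irradiation in KO and WT numbered 4417 and 4465 (2771 and 2751).

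Without a filter the interaction called 359 higher and 219 lower genes, and the 2 groups alone gave 831 lower genes for KO without irradiation. With 1 library left out, irradiation gave 2072 to 3104 higher and 1832 to 2883 lower genes in KO and 1812 to 2754 lower in WT. KO after irradiation gave 1100 to 1887 higher and 792 to 1592 lower, KO without it 788 to 1409 and 676 to 1139, and the interaction 99 to 124 and 18 to 31. Fits with 1 library left out hold fewer libraries, and the cause of the changes in these counts was not tested.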
